A study of Mus musculus with 15 samples.

Results

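H19 and Igf2 are neighbouring imprinted genes on mouse chromosome 7, and the values here are the tags of both RNAs in HITS-CLIP of the muscleblind protein Mbnl3. In HITS-CLIP, ultraviolet light crosslinks protein to RNA in tissue, an antibody recovers the protein, and the RNA held by it is sequenced as short tags. Minus-strand tags of chromosome 7 were counted for H19 when their midpoint fell within 149761400 to 149764100 (mm9, counted from 1), and for Igf2 when it fell within 149836600 to 149847000. Both genes were chosen by their CLIP tag levels in ΔE2, WT and C2C12. These bounds took 2567 of the 950894 tags of all sets, with C2C12 molecules counted once, with both genes represented in every set. Each gene is named from these bounds alone, since no mm9 annotation was used.

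The 3 sets were forelimbs of BL6 embryos homozygous for the Mbnl3 ΔE2 allele, forelimbs of wild-type (WT) BL6 embryos, and C2C12 cells, a mouse myoblast line grown in medium with 20% serum. Forelimbs were taken 15 days post coitum, and each of the 3 replicates per genotype pooled 4 forelimbs of 2 embryos. Each of the 3 C2C12 replicates came from 5 plates, and the authors combined them into 1 set. All sets shared the antibody, called Mb3/7, and RNase A at 55 and 0.55 U/ml. The study's title speaks of an isoform knockout and the titles of the ΔE2 libraries of a knockout, so recovery of RNA from ΔE2 forelimbs cannot be read as Mbnl3 binding without a check of the protein, which was not analysed here.

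H19 is a long noncoding RNA made from the maternal chromosome, and Igf2, an insulin-like growth factor that drives fetal growth, is made from the paternal one. A control region between the genes is methylated on the paternal chromosome only and decides which of them can use their shared enhancers. Both RNAs are abundant in embryonic tissue of mesodermal origin, muscle and limb included. Muscleblind proteins bind RNA through zinc fingers and regulate splicing and the place and stability of mRNAs.

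Each RNA also gives rise to microRNAs, miR-675 from an exon of H19 and miR-483 from an intron of Igf2. Their mature sequences are shown because they are the small regulatory RNAs these loci make beside the RNAs tagged here. They are RefSeq sequences of build GRCm38.p6, written 5′ to 3′, and capitals mark the seed, bases 2 to 8.
mmu-miR-675-5p: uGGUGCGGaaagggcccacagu
mmu-miR-675-3p: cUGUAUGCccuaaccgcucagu
mmu-miR-483-5p: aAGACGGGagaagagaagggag
mmu-miR-483-3p: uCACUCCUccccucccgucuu
The 4 seeds differ from each other. Tags over the microRNA hairpins were not set apart, since their mm9 positions were not used.

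Tags with the same position, strand and barcode are 1 molecule. ΔE2 replicate 2 shared 83.7% of its tags with ΔE2 replicate 3, and 83.5% of its H19 tags and 85.0% of its Igf2 tags. In the other direction, replicate 3 shared 57.4% of its tags with replicate 2, and 66.0% of its H19 tags and 69.8% of its Igf2 tags. The pair was therefore joined and counted as 1 library, called ΔE2 library 2 below, so that n is 2 for ΔE2 and 3 for WT. Libraries held 67279 and 65730 tags in ΔE2, from 35413 to 124309 in WT, and 550124 in the C2C12 set. Forelimb tags were 19 to 38 nt long and C2C12 tags 26 to 30 nt. Molecules were also shared across genotypes: of the tags of ΔE2 library 1, 30.1% were found in WT library 3, with 39.0% of its Igf2 tags and 17.5% of its H19 tags. WT libraries shared molecules too, with 56.7% of the H19 tags of WT library 1 found in WT library 2. The levels and the site folds are also given with such molecules left out or reassigned. The WT libraries were still counted as 3, so the SDs given for WT are not a spread of fully independent libraries. Labels call the replicates biological, and the ΔE2 libraries carry a different deposited number from WT and C2C12 (27 against 37) that no label explains, so genotype and that number cannot be told apart.

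The comparison of ΔE2 with WT forelimbs asks how much H19 and Igf2 RNA each recovered. ΔE2 forelimbs gave more H19 tags and fewer Igf2 tags than WT forelimbs, per 100000 tags of the library. H19 had 126 and 113 tags in the ΔE2 libraries, against 30, 82 and 118 tags in the WT libraries. Per 100000 tags of the library, that was 187 and 172 in ΔE2, against 84.7, 111 and 94.9 in WT. Every ΔE2 value lay above every WT value. The means were 179.6 ± 10.9 in ΔE2 (SD, n = 2) and 96.8 ± 13.1 in WT (SD, n = 3), a ratio of 1.86. Counting error alone gives 95% exact Poisson intervals of 142 to 207 for ΔE2 library 2, the lower one of its group, and 88.0 to 137 for WT library 2, the higher one of its group.

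Igf2 had 231 and 201 tags in the ΔE2 libraries, against 306, 424 and 653 tags in the WT libraries. Per 100000 tags of the library, that was 343 and 306 in ΔE2, against 864, 572 and 525 in WT. The groups did not overlap, and WT library 1, the smallest, stood above the other WT libraries. The means were 324.6 ± 26.6 in ΔE2 (SD, n = 2) and 653.8 ± 183.6 in WT (SD, n = 3), a ratio of 0.496. Without WT library 1 the Igf2 ratio was 0.592.

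The number of H19 tags per Igf2 tag needs no scaling between libraries, and it was not corrected for the different window lengths. It was 0.545 and 0.562 in ΔE2, against 0.098, 0.193 and 0.181 in WT, so H19 had fewer tags than Igf2 in every forelimb library. The mean in ΔE2 was 3.52 times that in WT. These ΔE2 and WT values are the ones by which the genes were chosen, so they are a description and carry no test.

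**Figure D1:**
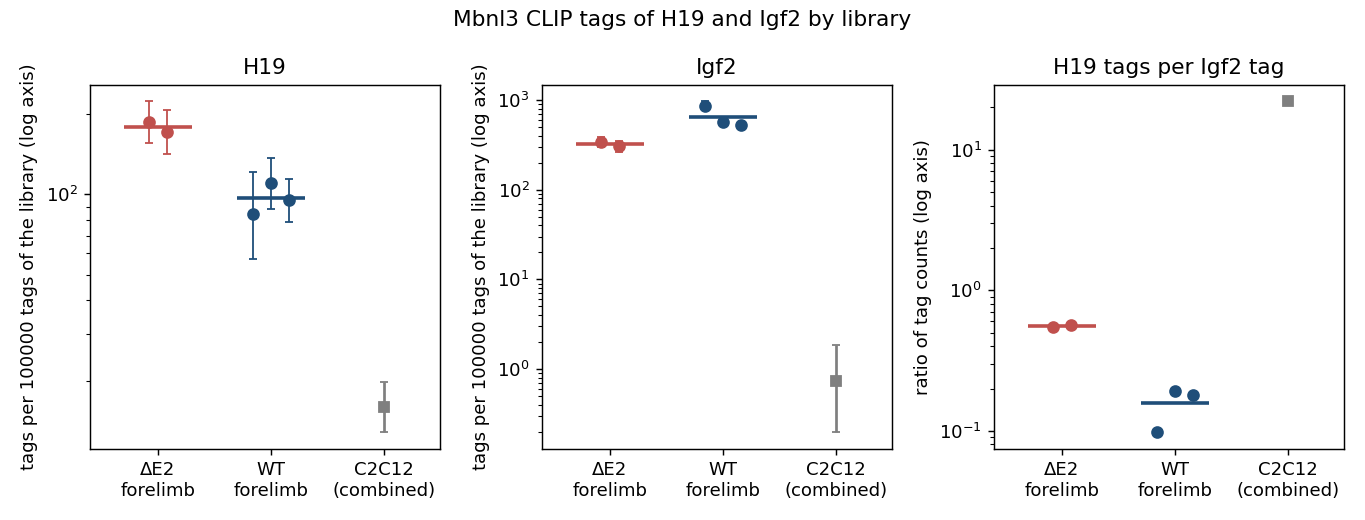
Tags of H19 and of Igf2 per 100000 tags of the library (left and middle, log axes) and H19 tags per Igf2 tag (right, log axis) in ΔE2 forelimb, WT forelimb and the combined C2C12 set. Points are libraries with 95% exact Poisson intervals (none in the right panel), bars are group means and the square is the C2C12 set; H19 lies between 172 and 187 in ΔE2 and between 84.7 and 111 in WT, while Igf2 lies between 306 and 343 in ΔE2 and between 525 and 864 in WT.

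The size of these differences depended on which tags were counted. Over tags of 26 to 30 nt only, the length range of the C2C12 set, H19 had 113 and 84.2 tags per 100000 in ΔE2, against 70.4, 87.5 and 77.6 in WT. There the groups overlapped and the ratio was 1.26. These values rest on 13 and 8 tags in ΔE2, against 4, 12 and 19 tags in WT. Among tags of 31 to 38 nt, H19 had 210.5 and 199 tags per 100000 of that class in ΔE2, against 100.2, 142 and 121 in WT, and the groups did not overlap. Nor did they among tags of 19 to 25 nt, with 186 and 147 in ΔE2, against 57.0, 71.2 and 63.4 in WT. Igf2 was lower in ΔE2 in each length class, with 218 and 242 tags per 100000 at 26 to 30 nt in ΔE2, against 757, 416 and 363 in WT.

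Scaling and shared molecules moved the values too, with the same direction. Scaled to the tags in tested clusters with TMM factors, which correct for a few dominant sites, the ratio of ΔE2 to WT was 2.69 for H19 and 0.735 for Igf2. With molecules found in both genotypes left out, it was 2.14 for H19 and 0.435 for Igf2. When shared molecules were assigned to the library where they had most reads, with ties left out, H19 per Igf2 tag was 5.18 times as high in ΔE2 as in WT. With tags collapsed by their 5′ end it was 2.55 times as high. Total RNA of H19 and Igf2 was not analysed here, so a change in RNA amount, in the cells that make it or in binding cannot be told apart, nor can fewer cells of a type from less RNA per cell.

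Along H19 the tags gathered at the same main sites in all forelimb libraries. Same-strand forelimb tags sharing at least 1 nt were joined across libraries into clusters, of which 29 lay in H19. The 8 of them with at least 10 tags are called sites here, and the other 21 held 71 tags in all. H19 is transcribed from high to low coordinates. Tags covered 1440 nt of the 2701-nt window in ΔE2 and 1347 nt in WT. Split into 3 equal stretches from the upstream end, H19 held 13%, 42.3% and 44.8% of its tags in ΔE2, and 12.2%, 42.6% and 45.2% in WT.

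**Figure D2:**
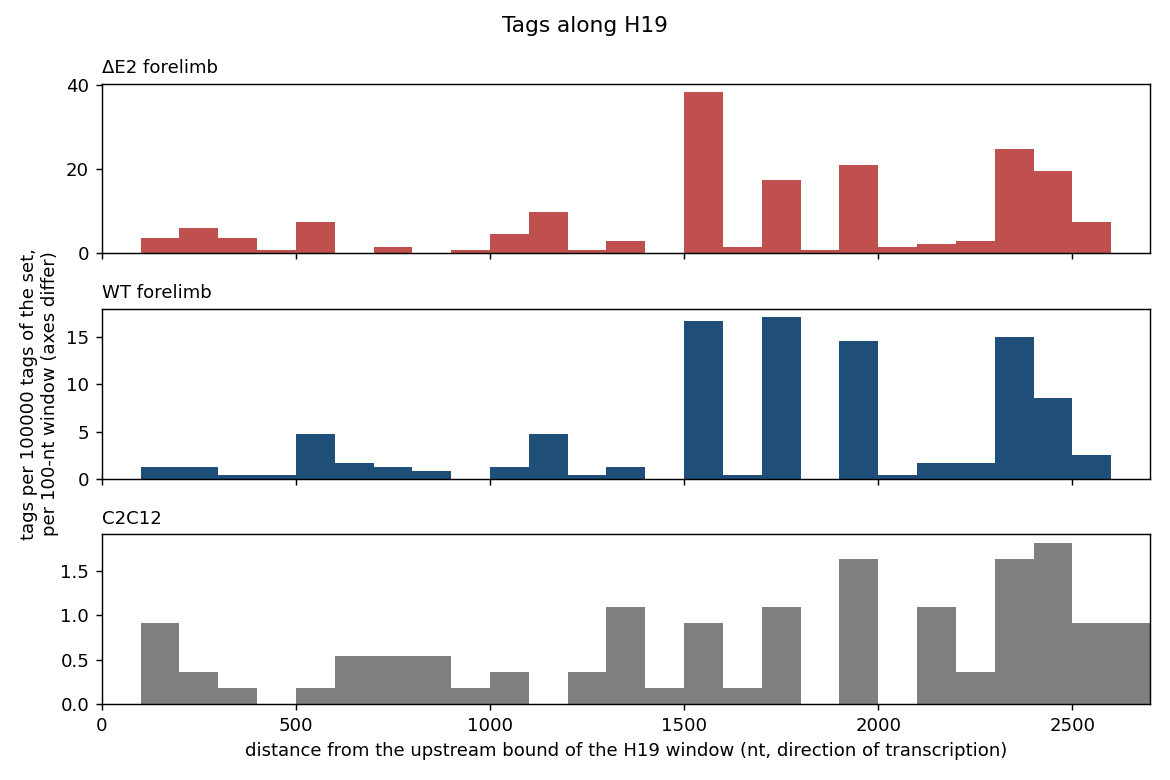
Tags along the H19 window in steps of 100 nt, in the direction of transcription, as tags per 100000 tags of the set (the 3 vertical axes differ), for ΔE2 forelimb, WT forelimb and C2C12. Both forelimb sets peak in the same steps from 1500 nt on, and the ΔE2 peak at 1500 to 1600 nt stands highest of its set.

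The H19 site with the most tags in both genotypes lay from 149761614 to 149761860, near the downstream end. It had 50.5 and 44.1 tags per 100000 in ΔE2, against 16.9, 33.7 and 21.7 in WT. It took 27% and 25.7% of H19 tags in ΔE2, against 20.0%, 30.5% and 22.9% in WT, so its share overlapped between the genotypes.

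The narrow site from 149762509 to 149762584, 76 nt long, differed most in level among the tested H19 sites. It had 37.2 and 39.6 tags per 100000 in ΔE2, against 19.8, 17.5 and 14.5 in WT. The genotypes did not overlap. Where bases tied for the greatest depth, the lowest coordinate is given as the deepest base here and below, so it is not an exact position. This base was 149762538 in both ΔE2 libraries and 149762546 in all 3 WT libraries. The most used 5′ end was 149762580 in both ΔE2 libraries and 149762572 in all 3 WT libraries. Few tags stood behind those ends, 3 and 4 in ΔE2, against 2, 2 and 4 in WT. The WT libraries share H19 molecules, so their agreement is not independent. These positions were not compared with shared molecules left out. In ΔE2 the tags of this site began at 24 distinct positions, and in WT at 13. Only 1 of its 51 ΔE2 tags and 1 of its 38 WT tags were 26 to 30 nt long.

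The site from 149762096 to 149762233 had 23.8 and 19.8 tags per 100000 in ΔE2, against 14.1, 13.5 and 15.3 in WT, without overlap. The site from 149762324 to 149762432 had 20.8 and 16.7 in ΔE2, against 8.47, 18.9 and 19.3 in WT, and the genotypes overlapped. This last site took 11.1% and 9.73% of H19 tags in the ΔE2 libraries, against 10.0%, 17.1% and 20.3% in WT libraries 1 to 3. Its deepest base stayed between 149762348 and 149762350 in all forelimb libraries.

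The 4 remaining sites were sparse, with 14 to 24 tags each over all libraries as labelled. They began at 149761530, 149762964, 149763505 and 149763817. The last one, the most upstream, had 4 tags in each ΔE2 library, against 0, 0 and 3 tags in the WT libraries. The site from 149762964 to 149763011 had 4 and 6 tags in ΔE2, against 2, 3 and 5 tags in WT.

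Along Igf2 the tags gathered in 3 groups, 1 upstream and 2 downstream. Of 43 clusters, 8 had at least 10 tags, and the other 35 held 121 tags. Split into 3 equal stretches from the upstream end, Igf2 held 52.5%, 4.17% and 43.3% of its tags in ΔE2, and 57.6%, 5.42% and 37% in WT. Tags covered 1951 nt of the 10401-nt window in ΔE2 and 2941 nt in WT, which had more tags.

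**Figure D3:**
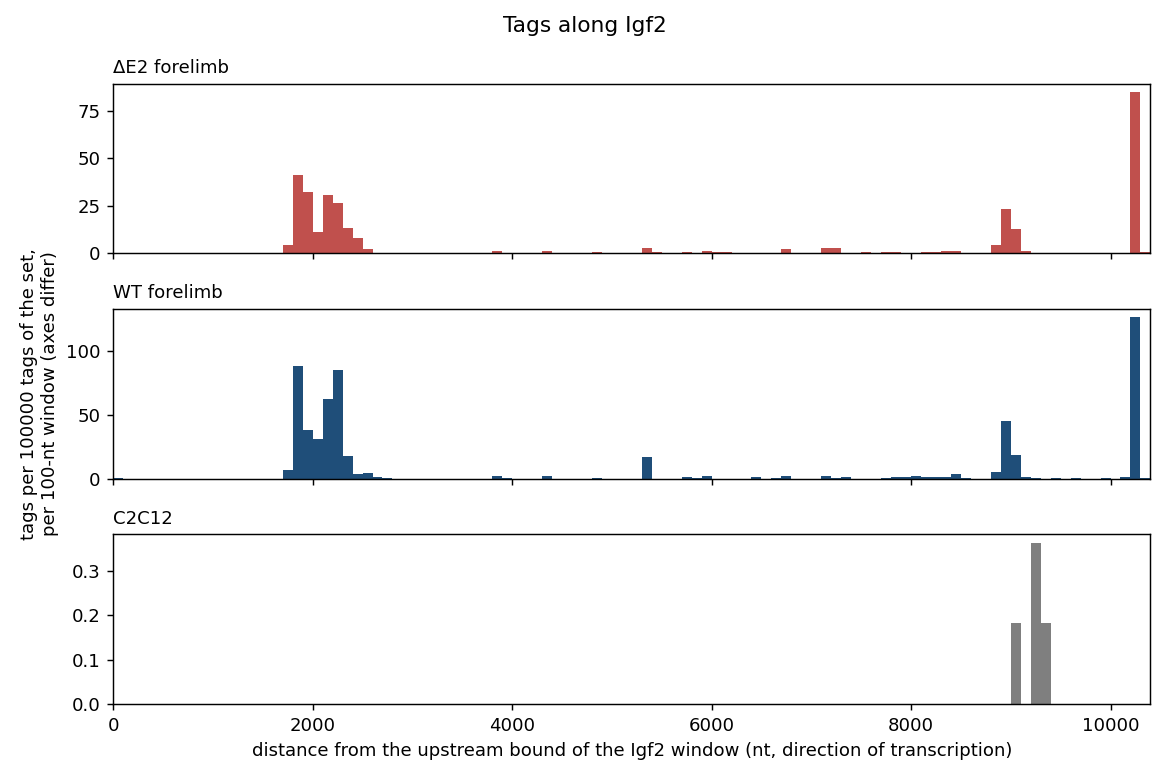
Tags along the Igf2 window in steps of 100 nt, in the direction of transcription, as tags per 100000 tags of the set (the 3 vertical axes differ), for ΔE2 forelimb, WT forelimb and C2C12. Forelimb tags gather near 2000 nt, near 9000 nt and in the step from 10200 nt in both genotypes; the C2C12 panel holds 4 tags in all.

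The largest Igf2 site ran over 547 nt, from 149844614 to 149845160. It had 109 and 98 tags in ΔE2, against 189, 226 and 340 tags in WT. Per 100000 tags that was 162 and 149 in ΔE2, against 534, 305 and 274 in WT. It took 47.2% and 48.8% of Igf2 tags in ΔE2, against 61.8%, 53.3% and 52.1% in WT. The shares did not overlap, but they did when tags were collapsed by 5′ end, where the means were 47.4% ± 2.20 in ΔE2 (SD, n = 2) and 51.0% ± 3.72 in WT (SD, n = 3). Over tags of 26 to 30 nt the site took 28.0% and 47.8% of Igf2 tags in ΔE2, against 60.5%, 56.1% and 49.4% in WT. By number of tags it stood at rank 13 among all forelimb clusters in ΔE2 and at rank 3 in WT.

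Within this site the step from 2200 to 2300 nt of the window differed most in share. It held 8.23% and 7.96% of Igf2 tags in ΔE2, against 15.4%, 14.9% and 13.6% in WT. The neighbouring step from 2100 to 2200 nt held 11.3% and 7.46% in ΔE2, against 8.82%, 12.7% and 9.95% in WT, and overlapped. The deepest base of the site lay near its upstream edge, between 149845120 and 149845126 in all forelimb libraries. The most used 5′ end was 149845143 in both ΔE2 libraries and in WT library 3, and 149844785 in WT libraries 1 and 2.

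The most downstream Igf2 site, from 149836674 to 149836808, had the deepest pile of tags at a single base, 85 in ΔE2 and 243 in WT. It had 90.7 and 80.6 tags per 100000 in ΔE2, against 147, 151 and 107 in WT. Its share of Igf2 tags was 26.4% in both ΔE2 libraries, against 17.0%, 26.4% and 20.4% in WT. Its deepest base was 149836740 in both ΔE2 libraries, and 149836734, 149836730 and 149836735 in WT libraries 1 to 3. The site from 149837875 to 149838141 had 44.6 and 31.9 tags per 100000 in ΔE2, against 64.9, 59.4 and 73.2 in WT, and its deepest base lay between 149838080 and 149838084 in all of them.

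A small site in the middle, from 149841597 to 149841713, had the lowest ratio of ΔE2 to WT among the tested sites of either RNA. It had 2 tags in each ΔE2 library, against 7, 13 and 19 tags in the WT libraries. Per 100000 tags that was 2.97 and 3.04 in ΔE2, against 19.8, 17.5 and 15.3 in WT. It took 0.866% and 0.995% of Igf2 tags in ΔE2, against 2.29%, 3.07% and 2.91% in WT. The other 4 sites began at 149839789, 149840232, 149844421 and 149845196 and had 11 to 37 tags over all libraries as labelled. The one from 149844421 to 149844586, just downstream of the largest site, had 7 tags in each ΔE2 library, against 5, 6 and 8 tags in WT, and took 3.03% and 3.48% of Igf2 tags in ΔE2, against 1.63%, 1.42% and 1.23% in WT.

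**Figure D4:**
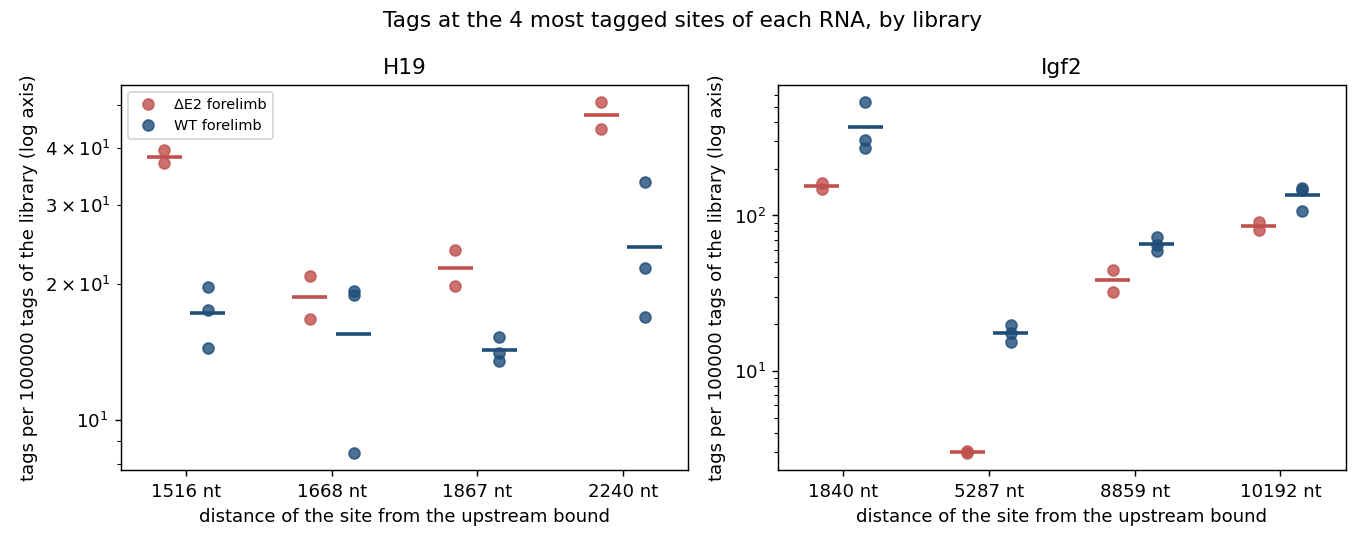
Tags per 100000 tags of the library (log axes) at the 4 tested sites of H19 (left) and of Igf2 (right), ordered by distance from the upstream bound of each window. Red points are ΔE2 libraries and blue points WT libraries, and bars are means; at 1516 nt of H19 the ΔE2 libraries lie at 37.2 and 39.6 and the WT libraries from 14.5 to 19.8, and at 5287 nt of Igf2 the ΔE2 libraries lie at 2.97 and 3.04 and the WT libraries from 15.3 to 19.8.

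Counts of all forelimb clusters were fitted together with edgeR (quasi-likelihood test, TMM scaling), and a cluster was called at a Benjamini-Hochberg adjusted p at or under 0.05. Calls made up 22.5% of the 276 tested clusters, with 15.9% higher and 6.52% lower in ΔE2. In H19, 4 of the 8 sites were tested and 3 passed as higher in ΔE2, with 0 as lower. In Igf2, 4 of 8 were tested, 1 was called lower and 0 higher. The same contrast chose the genes, so nothing is read from these counts. Without TMM scaling the calls over all clusters turned from 44 higher and 18 lower to 28 higher and 46 lower, and the median log2 fold of all tested clusters was -0.46, against -0.08 with TMM.

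Log2 folds of ΔE2 over WT in this fit, with their standard errors, followed the levels. In H19 they were 1.72 ± 0.31 at 149762509, 1.43 ± 0.33 at 149761614, 1.08 ± 0.34 at 149762096 and 0.62 ± 0.41 at 149762324, the site that was not called. In Igf2 they were -1.94 ± 0.57 at 149841597, -0.67 ± 0.33 at 149844614, -0.28 ± 0.29 at 149837875 and -0.10 ± 0.27 at 149836674. The median over the tested sites was 1.26 in H19 and -0.47 in Igf2, beside -0.08 over all tested clusters. Without TMM scaling the fold of every tested site of both RNAs was lower. It was then 0.23 at 149762324 in H19, and -0.67 at 149837875 and -0.49 at 149836674 in Igf2. On this scale the values of ΔE2 and WT did not overlap at 4 of 4 H19 sites and 3 of 4 Igf2 sites, against 55.8% of all tested clusters. With molecules of both genotypes left out, the log2 fold was 2.14 at 149762509, 1.78 at 149761614, 1.37 at 149762096 and 0.90 at 149762324 in H19, and -2.02 at 149841597, -0.75 at 149844614, -0.17 at 149837875 and -0.14 at 149836674 in Igf2. When shared molecules were reassigned to the library with most reads, the H19 folds were 2.61, 2.02, 1.34 and 0.94 in the same order, and the Igf2 folds were -0.81 at 149844614, -0.04 at 149837875 and -0.29 at 149836674, while 149841597 was not tested. The downstream Igf2 site at 149836674 was the one that overlapped on the TMM scale, and its fold turned to 0.31 with tags collapsed by 5′ end.

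The calls differed in how far they rested on single libraries. Every alternative refits the same libraries in the contrast that chose the genes. The counts of calls are therefore a description and no support for a difference. The H19 site at 149762509 was called in 15 of 17 alternatives, all 6 fits without 1 library among them. The site at 149761614 was called in 14 of 17, and among the fits without 1 library it was lost without WT library 3. Both were lost with WT libraries 2 and 3 counted as 1 and without a filter on low counts. The site at 149762096 was called in 4 of the 16 alternatives that tested it. It was lost in 4 of the 6 fits without 1 library (WT library 2, WT library 3, ΔE2 replicate 1 or ΔE2 replicate 2). It was also lost with DESeq2, without TMM scaling or the filter, with the replicate block, with WT libraries 2 and 3 as 1, with tags collapsed by position or 5′ end, and with shared molecules reassigned. The Igf2 site at 149841597 was called in 3 of the 10 alternatives that tested it, and in 1 of the 6 fits without 1 library, the one without WT library 1. The largest Igf2 site was called in 1 of 17 alternatives, without TMM scaling, at a log2 fold of -1.03.

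**Figure D5:**
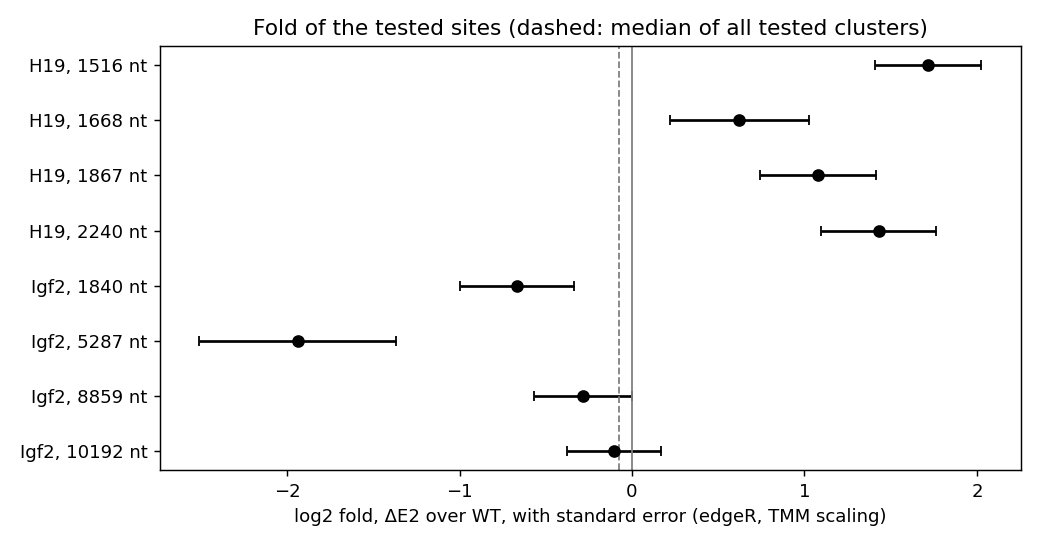
Log2 fold of ΔE2 over WT (edgeR, TMM scaling) at the tested sites, named by RNA and distance from the upstream bound of its window. Points are estimates with standard errors, the solid line is no difference and the dashed line is the median of all tested clusters at -0.08; the 4 H19 sites lie from 0.62 to 1.72 and the 4 Igf2 sites from -1.94 to -0.10.

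Some measures of the tags were not used to choose the genes, and they were compared over libraries with two-sided exact permutation tests. With 2 against 3 libraries the smallest possible p is 0.1, so none of the 6 tests could pass 0.05. H19 tags were longer than the mean tag of their library by 0.698 ± 0.293 nt in ΔE2 (SD, n = 2) and by 1.5 ± 0.110 nt in WT (SD, n = 3), an exact p of 0.1 (adjusted 0.3). The log2 reads behind an H19 tag, relative to the library mean, were 0.588 ± 0.344 in ΔE2 (SD, n = 2) and -0.0213 ± 0.168 in WT (SD, n = 3), also an exact p of 0.1 (adjusted 0.3). For Igf2, tags were longer than the library mean by 0.917 ± 0.295 nt in ΔE2 (SD, n = 2) and 0.969 ± 0.136 nt in WT (SD, n = 3), with an exact p of 0.8 (adjusted 1). The log2 reads were 0.366 ± 0.588 above the library mean in ΔE2 (SD, n = 2) and 0.664 ± 0.113 above it in WT (SD, n = 3), with an exact p of 0.7 (adjusted 1).

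The tags kept to the strand and to the bounds of both RNAs. The opposite strand of both windows held 0 tags in every forelimb library and in the C2C12 set (exact p of 1 for each RNA between ΔE2 and WT). The 72499 nt between the windows held 0 forelimb tags on the minus strand and 2 C2C12 tags. The outermost H19 tags of the forelimb had midpoints 109 and 126 nt inside the bounds, and those of Igf2 89.5 and 49.0 nt inside. The nearest tag outside the H19 window at its downstream side lay 59718 nt away.

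C2C12 cells gave far fewer tags of both RNAs per 100000 tags of the set than forelimb, and nearly none of Igf2. The set held 88 H19 tags, or 16.0 per 100000 (95% exact Poisson interval 12.8 to 19.7, counting error only). The forelimb means were 11.2 times as high in ΔE2 and 6.05 times as high in WT. It held 4 Igf2 tags, or 0.727 per 100000 (interval 0.198 to 1.86), and the forelimb means were 446 times as high in ΔE2 and 899 times as high in WT. The counting error of the 4 tags spans 174 to 1638 times for ΔE2 and 351 to 3300 times for WT. With 22.0 H19 tags per Igf2 tag, the order of the tag counts in C2C12 was the opposite of that in every forelimb library.

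With forelimb tags limited to 26 to 30 nt, the forelimb mean of H19 was 6.17 times the C2C12 level in ΔE2 and 4.91 times in WT, and that of Igf2 was 316 times in ΔE2 and 704 times in WT. C2C12 is 1 combined set, so there is no replicate check and no test. Tissue and cells also differ in how they were crosslinked, as frozen powder and as plated cells, and this cannot be told apart from cell type.

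Tag length differs between C2C12 and forelimb, so H19 shares along the RNA are given over all lengths and at matched length. Over tags of any length, the middle of the 3 equal stretches held 42.3% of H19 tags in ΔE2 and 42.6% in WT, against 27.3% in C2C12 (95% Clopper-Pearson interval 18.3 to 37.8). The upstream one held 13% in ΔE2 and 12.2% in WT, against 20.5% in C2C12 (interval 12.6 to 30.4). By library the middle share was 41.3% and 43.4% in ΔE2 and 43.3%, 40.2% and 44.1% in WT, all above the upper end of the C2C12 interval. The narrow site at 149762509 held 19.8% and 23.0% of H19 tags in ΔE2 and 23.3%, 15.9% and 15.3% in WT, against 5.68% in C2C12, from 5 tags.

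At matched length, C2C12 lay within the forelimb intervals for the 3 stretches and for the narrow site, but not at every site. At 149762324 the C2C12 share was 7.95%, below the WT interval (22.9%, 10.4 to 40.1) but within that of ΔE2 (4.76%, 0.120 to 23.8). At 149763505 it was 1.14%, from 1 tag, below the intervals of ΔE2 (9.52%, 1.17 to 30.4) and WT (8.57%, 1.80 to 23.1). At 149763817 it was 2.27%, below the ΔE2 interval (14.3%, 3.05 to 36.3) but within that of WT (0%, 0 to 10.0). Over tags of 26 to 30 nt, the middle stretch held 23.8% of 21 H19 tags in ΔE2 (interval 8.22 to 47.2) and 28.6% of 35 in WT (interval 14.6 to 46.3), against 27.3% in C2C12. These intervals pool libraries that share molecules. They cover counting error only, not the spread between libraries. The site at 149762509 held 4.76% in ΔE2 (interval 0.120 to 23.8) and 2.86% in WT (interval 0.0723 to 14.9), 1 tag each, against 5.68% in C2C12. The site at 149761614 held 21 C2C12 tags, 23.9% of that set's H19 tags (interval 15.4 to 34.1). At 26 to 30 nt it held 53.8% and 37.5% in ΔE2 and 50.0%, 50.0% and 36.8% in WT, all above the C2C12 share. Those forelimb shares come from 4 to 19 H19 tags a library. The C2C12 share also lay below the interval over the tags of each genotype, 25.7 to 70.2 in ΔE2 and 26.3 to 60.6 in WT. Those intervals still overlap that of C2C12, and no test was run.

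The deepest bases lay close together in tissue and cells at some sites. At 149762324 to 149762432 the deepest base over all tags was 149762349 in ΔE2 and 149762350 in WT, against 149762351 in C2C12. At 149762509 to 149762584 it was 149762538 in ΔE2 and 149762546 in WT, against 149762546 in C2C12, where its depth was 4 tags. When C2C12 tags were merged among themselves, the only H19 cluster with at least 10 tags lay from 149761612 to 149761743 and held 13. At the downstream end, from 149761474 to 149761534, there were 2 tags in ΔE2 and 0 in WT, against 9 in C2C12.

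The 4 Igf2 tags of C2C12 lay between 149837683 and 149837929. Of the forelimb sites of Igf2, 1 had a C2C12 tag, the site at 149837875. The largest site had 207 tags in ΔE2 and 755 in WT, against 0 in C2C12, where a count of 0 allows up to 0.545 tags per 100000. The site at 149836674 had 114 tags in ΔE2 and 297 in WT, against 0 in C2C12.

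The authors' deposited table of changed cassette exons, made from RNA-seq of ΔE2 and WT forelimbs, lists 98 events in 84 genes. A header of that table gives the mutant as a different muscleblind gene than Mbnl3, so which mutant the column holds is not certain. Of 63 genes of insulin-like growth factor signalling and of imprinted clusters that were looked up, H19, Igf2, the Igf2 receptor and the Igf2bp genes included, 0 had an event there. The number of genes the authors tested was not used here, so this count has no background share and nothing is read from it. The table holds changed exons only, so it says nothing of the level of either RNA.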

How the data were processed

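The deposited forelimb files list 1 CLIP tag per line with strand, a 5-base barcode and its number of reads; they also carry a score that the authors did not explain, which was not used. The submitters' processing notes name Novoalign and the mm9 build; the aligner's version is not stated in the sources. Counts of tags were then computed from the authors' lines. The C2C12 file is the authors' combination, and records with the same position, strand and barcode were counted once (550124 of 677787). The authors' exon table holds estimated counts of tags per isoform, per the file headers; only its gene names were used here. The members, sites and gene lists were chosen with earlier results of these data known. Sites are all clusters with at least 10 tags.

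Clusters were fitted with edgeR 4.0.16 in R 4.3.3 (TMM, quasi-likelihood test, filterByExpr at a minimum count of 10), with 3 residual degrees of freedom and a common dispersion of 0.0435. DESeq2 1.42.0 was an alternative. The fit was tested on simulated data with known folds. Tests were planned on 3 against 3 libraries or, if ΔE2 replicates 2 and 3 shared most molecules, on 3 against 2. Intervals and limits at a count of 0 (3 tags) cover counting error only, since reads of 1 molecule are not independent. Other alternatives were tags collapsed by position or 5′ end, libraries as labelled, shared molecules reassigned, no filter, no TMM and leaving out each library. Python 3.11.15, numpy 2.4.6, pandas 2.3.3 and matplotlib 3.10.9 did the rest. Motifs and exon positions need an mm9 genome and annotation and were not analysed here.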

Additional observations from a re-analysis of the deposited data

How the results depend on the processing

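H19 stayed higher and Igf2 lower in ΔE2 than in WT in level under all alternatives run, while sizes moved; where a value changed, the cause was not tested. The ratio of ΔE2 to WT for H19 was 2.32 with shared molecules given to the library with most reads, 2.14 with molecules of both genotypes left out, 2.19 without tags of 1 read, 1.26 with tags of 26 to 30 nt only and 2.69 with TMM-scaled totals. The last gave 0.735 for Igf2. H19 per Igf2 tag was 5.18 times as high with shared molecules reassigned. Leaving out each library gave 1.75 to 2.00 for H19, 0.452 to 0.592 for Igf2 and 2.96 to 3.97 for H19 per Igf2 tag. Molecules of both genotypes, tags of 1 read, tag length and cluster totals were alternatives chosen after seeing the data.

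Over all clusters, 62 were called. The count was 19 without a filter on low counts, 35 with DESeq2 (31 higher and 4 lower), 41 with tags collapsed by 5′ end and 110 with molecules of both genotypes left out. With WT replicates 2 and 3 as 1 library edgeR called 0, with 72 at an unadjusted p under 0.05. Leaving out each library gave 16 (without WT replicate 2) to 90 (without WT replicate 1), with 22 without WT replicate 3. Pairing was checked on the 6 libraries as labelled: deviations of same-numbered ΔE2 and WT libraries correlated at -0.081, -0.0386 and -0.106. Same-numbered libraries thus did not vary together. With so few libraries, and ΔE2 replicates 2 and 3 sharing most molecules, this cannot show what the samples share beyond a number. The replicate block gave 64 calls (36 higher and 28 lower), against 85 without it.

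For Igf2 tag length, ΔE2 minus WT turned to 0.053 nt with 6 libraries as labelled and 0.119 nt without tags of 1 read, and ran from -0.260 to 0.0982 nt without each library (0.0100, 0.0982 and 0.0600 nt without WT replicate 3, ΔE2 replicate 2 and ΔE2 replicate 3). For log2 reads per Igf2 tag it turned to 0.0195 with shared molecules reassigned and ran from -0.547 to 0.118 without each library, the last without ΔE2 replicate 1. For H19, these differences ran from -0.988 to -0.591 nt in length and from 0.340 to 0.690 in log2 reads without each library. The share in the most tagged WT site, ΔE2 minus WT, ran from -0.361 to 4.88 percentage points in H19 and from -9.56 to -4.71 in Igf2 without each library; with tags of 26 to 30 nt only, it was -17.4 in Igf2. Depth limits the small H19 sites and the C2C12 Igf2 level, which rests on 4 tags.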

Other observations

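The lines of the C2C12 set carry 3 display colours whose meaning no label or header states. The colours held 420336, 163914 and 93537 records. Their H19 levels, with each molecule counted once, were 16.4, 15.8 and 11.5 tags per 100000, from 69, 15 and 4 tags, and their Igf2 tags numbered 3, 0 and 1. The colours were not used as replicates, since nothing ties them to the 3 C2C12 samples.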
